A study of Saccharomyces cerevisiae with 8 samples.

Results

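Cytosolic chaperone genes of budding yeast were followed through a comparison of drug transporter mutants with their parent strain and with a further mutant of the regulator PDR1. They are 37 genes taken by name: the heat shock factor, the cytosolic Hsp100, Hsp90, Hsp70, Hsp110 and small heat shock proteins, their cochaperones, and the CCT chaperonin. Standard names were matched to ORF names, and all 37 were found among the 6546 features of the array. Each had 2 probes and passed the signal filter, so that 37 of the 6465 genes tested belong to this group.

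Chaperones bind unfolded or newly made proteins and, mostly with the help of ATP, let them fold or pull them out of aggregates. Hsp70 proteins work in cycles set by J proteins, which stimulate ATP hydrolysis, and by nucleotide exchange factors, while Hsp90 completes the folding of kinases, receptors and other clients with a set of cochaperones. In yeast the factor Hsf1 keeps the basal transcription of many of these genes and raises it on heat shock, and the factors Msn2 and Msn4 act on several of them in other stresses. Chaperones of the endoplasmic reticulum are under separate control by the unfolded protein response.

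Total RNA was measured on 8 two-colour Agilent arrays, in 4 of which the double mutant was set against wild type and in 4 against the triple mutant. Wild type was the haploid strain SEY6210, with the genotype MATα and GAL, carrying suc2-∆9, his3-∆200, lys2-801, leu2-3,-112, trp1-∆901 and ura3-52. The double mutant is labelled as this background with pdr5-∆1::hisG and yor1-1::hisG, disruptions of 2 ABC transporter genes, and the triple mutant carries pdr1::kanMX4 in addition. Cells of all 3 strains grew in YPD, a rich glucose medium, at 30 °C without any heat or drug treatment named in the labels. Since no label names separate cultures or clones for the 4 arrays of each kind, p-values cover array-to-array spread, which may be technical. In the main fit each gene has 1 such spread, shared by the 8 arrays of both comparisons.

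The double mutant carried Cy5 on arrays 1 and 3 of each comparison and Cy3 on arrays 2 and 4. Values are log2 ratios of the double mutant over the other strain, in which 1 stands for a doubling, and a gene was called where limma's adjusted p over all 6465 genes was below 0.05. The log2 ratios of all genes had an SD of 0.458 on array 4 of the comparison with wild type, against 0.183 to 0.279 on the other 7 arrays. In the targeted genes, PDR5 had log2 ratios of -1.14, -1.47, -1.62 and -1.62 against wild type, and YOR1, which is labelled as disrupted in the double mutant, had 2.03, 2.15, 1.75 and 1.83. Where their probes lie relative to the disrupted segments is not known here. PDR1 had -0.13, 0.40, -0.086 and 0.0020 against wild type. On the arrays of the other comparison PDR1 went against the labels: it stood well above background on 0 of 4 arrays in the channel labelled double mutant and on 4 of 4 in the channel labelled triple mutant. Its log2 ratios there were -2.88, -1.12, -2.81 and -2.63, and those of YOR1 were -1.88, -1.48, -1.76 and -1.54. Ratios of that comparison are therefore named by the channel labels, and their sign would turn if the labels were exchanged.

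Against wild type, most of the cytosolic chaperone genes stayed close to even, and 3 of 37 were called higher in the double mutant: the Hsp70 genes SSA1 and SSA2 and the Hsp90 gene HSP82. None was called lower by limma. An unadjusted p below 0.05 was found for 8 of 37 (21.6%, against 24.6% of all genes): the 3 called genes, HSF1, SBA1, CPR6 and SSB1 with positive ratios, and HSP31 with a negative one. These 3 calls are 8.11% of the group, against 8.21% of all genes called in either direction, so that the share called was near the background. The called share of all genes was 3.25% for higher and 4.97% for lower genes. The fitted log2 ratios of the group ran from -0.32 to 0.51 with a median of 0.079, beside a median of -0.0076 over all genes. Ratios were positive for 27 of the 37 genes (73%) and for 47.3% of all genes. Of the 37 genes 5 were higher on all 4 arrays (13.5%, all genes 11.3%) and 3 were lower on all 4 (8.11%, all genes 13.9%). The group's median was 0.00042, 0.11, 0.049 and 0.13 on arrays 1 to 4.

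**Figure D1:**
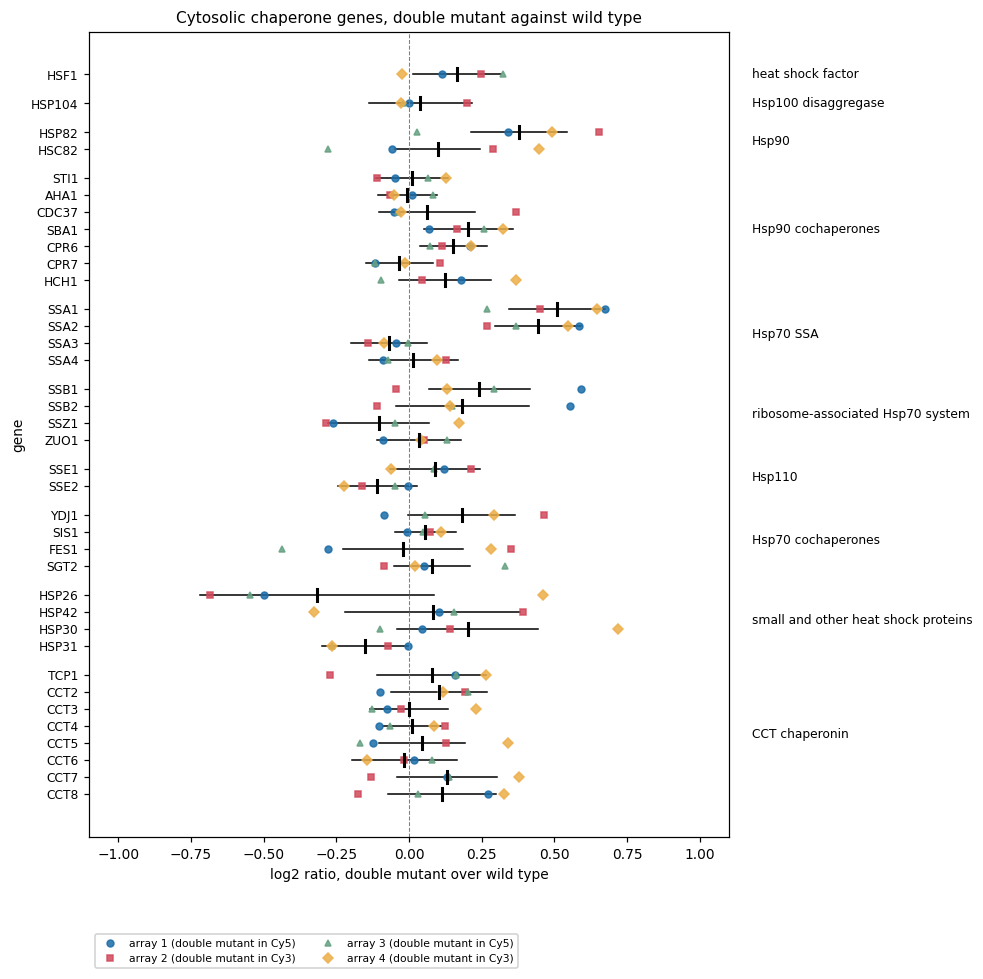
Log2 ratio of the double mutant over wild type (horizontal axis) for the 37 genes, arranged by role. Coloured symbols are the 4 arrays, the black tick is the fitted ratio and the black line its 95% confidence interval. SSA1 and SSA2 lie to the right of 0 on every array, while HSP26 has 3 arrays on the left and array 4 on the right.

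SSA1 (YAL005C) and SSA2 (YLL024C) encode Hsp70 proteins of the cytosol that growing cells make also without heat shock. The log2 ratio of SSA1 was 0.68 on array 1, 0.45 on array 2, 0.27 on array 3 and 0.65 on array 4. SSA2 had 0.58, 0.27, 0.37 and 0.55 on the same arrays. Both genes were higher in the double mutant on 4 of 4 arrays. SSA1 rose 1.42-fold (log2 ratio 0.51 ± 0.189, SD, n = 4; limma adjusted p = 0.00588) and SSA2 rose 1.36-fold (0.44 ± 0.148, SD, n = 4; limma adjusted p = 0.00658). The 95% confidence intervals reached from 0.35 to 0.67 for SSA1 and from 0.29 to 0.59 for SSA2. The 2 probes of each gene had fitted log2 ratios of 0.51 and 0.54 (SSA1) and of 0.44 and 0.46 (SSA2). The coding sequences of SSA1 and SSA2 are nearly identical, and whether each probe hybridised with its own transcript alone was not tested. Neither gene was called with the processed signals, with median centring or with the 4 arrays of this comparison alone, although their log2 ratios there were 0.39 to 0.56.

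SSA3 and SSA4, the Hsp70 genes that yeast keeps low at normal temperature and induces on heat shock, had fitted values close to even. SSA3 had log2 ratios of -0.045, -0.14, -0.0028 and -0.086 on arrays 1 to 4. SSA4 had -0.090, 0.13, -0.073 and 0.096, with signs split between the arrays. The fitted values were -0.068 for SSA3 and 0.015 for SSA4 (limma adjusted p = 0.503 and 0.92). The interval of SSA4, from -0.14 to 0.17, lies below that of SSA1.

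HSP82 (YPL240C), the heat-inducible Hsp90 gene, rose 1.3-fold in the double mutant. Its log2 ratio was 0.34 on array 1, 0.65 on array 2, 0.027 on array 3 and 0.49 on array 4 (0.38 ± 0.267, SD, n = 4; limma adjusted p = 0.0185). All 4 arrays were above 0, with array 3 close to it. The call was lost without array 1 (0.34; adjusted p = 0.0934) or array 2 (0.32; adjusted p = 0.055), with array weights, and in the same 3 settings as those of SSA1 and SSA2. HSC82 (YMR186W), the constitutive Hsp90 gene, had log2 ratios of -0.059, 0.29, -0.28 and 0.45 (fitted value 0.099; limma adjusted p = 0.376). Its arrays with the double mutant in Cy5 averaged -0.17 and those with it in Cy3 averaged 0.37, so that the sign followed the dye. For HSP82 these averages were 0.18 and 0.57, for SSA1 0.47 and 0.55, and for SSA2 0.48 and 0.41. The dye term of the fit was called for 0 of the 37 genes by limma and for 2 of all 6465.

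**Figure D2:**
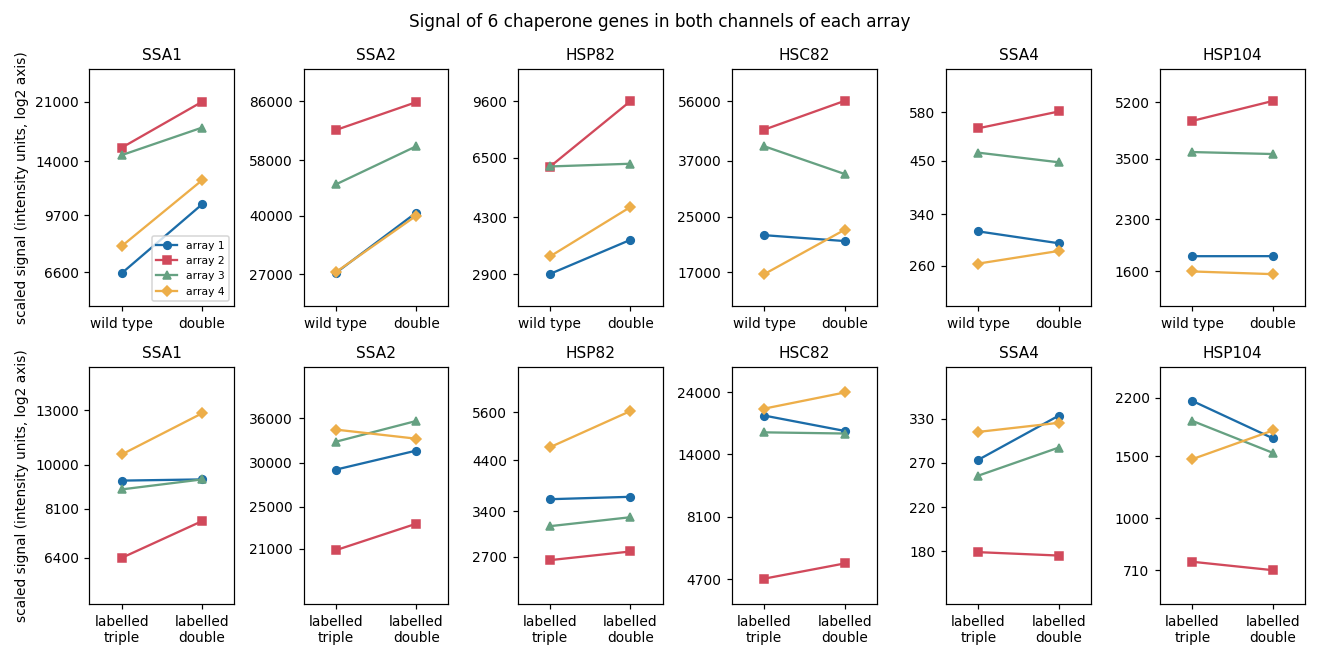
Background-corrected and scaled signal (vertical axis, intensity units on a log2 scale with its own range in each panel) of 6 genes in both channels of each array. Lines join the 2 channels of 1 array, with the comparison with wild type above and that with the channel labelled triple mutant below; SSA1 and SSA2 rise on each of the 4 upper lines, and no such slope is shared by HSC82, SSA4 or HSP104.

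The signals of SSA1 in wild type and the double mutant were 6553 and 10465 intensity units on array 1, 15361 and 20981 on array 2, 14606 and 17609 on array 3, and 7876 and 12324 on array 4. For HSP82 they were 2909 and 3683, 6108 and 9615, 6119 and 6236, and 3283 and 4623. The signal of each gene differed more between arrays than between the channels of 1 array, on which the ratios rest.

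Paralogs were set against each other array by array. The log2 ratio of HSP82 exceeded that of HSC82 on 4 of 4 arrays, by 0.28 ± 0.16 (SD, n = 4), and that of SSE1 exceeded that of SSE2 on 4 of 4, by 0.20 ± 0.119 (SD, n = 4). A two-sided exact permutation test over the signs of the 4 arrays gave p = 0.125 for both, the smallest p that 4 arrays allow, and an adjusted p of 0.625 over the 10 pairs and comparisons tested. SSA1 differed from SSA2 by 0.068 ± 0.119 (SD, n = 4; exact permutation p = 0.5). SSB1 differed from SSB2 by 0.058 ± 0.0641 (SD, n = 4; exact permutation p = 0.25). SSA4 differed from SSA3 by 0.083 ± 0.166 (SD, n = 4; exact permutation p = 0.5). No pair can pass the threshold in this design. Whether the probes of each pair read separate transcripts was not tested.

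HSF1 (YGL073W), which encodes the heat shock factor, had log2 ratios of 0.11, 0.25, 0.32 and -0.025 on arrays 1 to 4. Of these 3 were above 0 and array 4 was just below it. The fitted value was 0.17 (95% confidence interval 0.013 to 0.32), which did not pass the threshold (limma adjusted p = 0.169). HSP104, the disaggregase that pulls proteins out of aggregates together with Hsp70, had 0.00042, 0.20, -0.020 and -0.027 (fitted value 0.038; limma adjusted p = 0.802).

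Among the 7 Hsp90 cochaperone genes none was called, and the fitted log2 ratios ran from -0.034 to 0.20. SBA1, the yeast p23, which slows ATP hydrolysis by Hsp90, had 0.069, 0.17, 0.26 and 0.32 (fitted value 0.20; limma adjusted p = 0.104). The prolyl isomerase gene CPR6 was likewise above 0 on 4 of 4 arrays (0.21, 0.11, 0.074 and 0.21; fitted value 0.15; limma adjusted p = 0.109). STI1, the adaptor between Hsp70 and Hsp90, and AHA1, the activator of the Hsp90 ATPase, stood at 0.0094 and -0.0053. Of the remaining cochaperone genes, CDC37 for kinase clients, CPR7 and HCH1 had fitted values of 0.063, -0.034 and 0.12.

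The ribosome-associated Hsp70 genes SSB1 and SSB2, whose products bind nascent chains, had positive fitted values without a call. SSB1 had log2 ratios of 0.59, -0.045, 0.29 and 0.13 (fitted value 0.24; limma adjusted p = 0.0936), and SSB2 had 0.55, -0.11, 0.15 and 0.14 (fitted value 0.18; limma adjusted p = 0.3). Array 1 was highest and array 2 below 0 for both. As these paralogs are almost identical in sequence, whether their probes read separate transcripts was not tested. SSZ1 and ZUO1, which form the ribosome-associated complex that serves SSB1 and SSB2, had fitted values of -0.10 and 0.033. Of the Hsp110 genes, whose products exchange the nucleotide of Hsp70, SSE1 had 0.089 and SSE2 had -0.11. YDJ1 and SIS1, the main J proteins of the cytosol, had 0.18 and 0.056, the exchange factor gene FES1 had -0.021, and SGT2, which hands over tail-anchored proteins, had 0.080. FES1 was at -0.28 and -0.44 on arrays 1 and 3 and at 0.35 and 0.28 on arrays 2 and 4, again with signs that followed the dye. YDJ1 averaged -0.016 with the double mutant in Cy5 and 0.38 with it in Cy3.

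The widest spread in the group was that of HSP26 (YBR072W), a small heat shock protein that holds unfolded proteins. Its log2 ratios were -0.50, -0.68 and -0.55 on arrays 1, 2 and 3 and 0.46 on array 4. The fitted value was -0.32 (limma adjusted p = 0.307), and without array 4 HSP26 was called lower at -0.62 (limma adjusted p = 0.000628). The brighter probe of HSP26, used here, stood well above background in 14 of 16 channels of the 8 arrays. The other probe, which did so in all 16, had a fitted value of -0.22. With the processed signals the value of HSP26 was 0.0056. HSP42, the other small heat shock protein, had 0.10, 0.39, 0.15 and -0.33. HSP30, a membrane protein that restrains the proton pump in stressed cells, had 0.046, 0.14, -0.10 and 0.72 (fitted value 0.20; limma adjusted p = 0.283). HSP31, a methylglyoxalase of the DJ-1 family, was below 0 on 4 of 4 arrays (-0.0019, -0.072, -0.27 and -0.27; limma adjusted p = 0.192). Of these 4 genes HSP26 and HSP30 lay highest on array 4 and HSP42 lowest, while HSP31 was about equally low on arrays 3 and 4.

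The 8 genes of the CCT chaperonin, the double-ring complex that folds actin and tubulin, had fitted values between -0.016 (CCT6) and 0.13 (CCT7), with 0 called by limma and 0 at an unadjusted p below 0.05. On arrays 1 to 4 their medians were -0.030, -0.021, 0.054 and 0.25, and no CCT gene had the same sign on all 4 arrays. TCP1 was called higher only without array 2 (0.20; adjusted p = 0.0491), from a fitted value of 0.079.

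How large a change the data would allow is given by the 95% confidence intervals. In the comparison with wild type, the interval lay within 1.5-fold in either direction for 34 of the 37 genes, and for 5858 of all 6465. The median SE was 0.067 on the log2 scale, beside 0.065 over all genes.

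Set beside the group are 5 further lists: chaperones of the endoplasmic reticulum and of mitochondria, prefoldin, a mixed list, and stress genes. The mixed list holds further J proteins and cochaperones, but also other genes such as MBF1. The stress genes are under Msn2 and Msn4, and not all of them are chaperones. HSP12 stands in both of the last lists. Of 7 genes for chaperones of the endoplasmic reticulum 6 were called higher in the double mutant, with a median log2 ratio of 0.48. KAR2, the Hsp70 of that compartment, had 0.58, 1.01, 0.56 and 1.26 on arrays 1 to 4 (fitted value 0.85; limma adjusted p = 0.000412), and SIL1 and PDI1 had fitted values of 0.60 and 0.50. The number called was 4 without array 1 and 3 without array 3, where SCJ1 and PDI1, and without array 3 also JEM1, no longer passed. The call of SCJ1 was also lost without any 1 array of the other comparison, which left 5. The number called was 2 with median centring, 1 with the processed signals and 1 with the 4 arrays of the comparison alone. With the processed signals the gene kept was SIL1, while KAR2 did not pass (0.84, limma adjusted p = 0.088). Of 8 genes for mitochondrial chaperones 0 were called by limma (2 at an unadjusted p below 0.05, median -0.16). Of 6 prefoldin genes 0 were called by limma (0 at an unadjusted p below 0.05, median -0.092). The mixed list of 28 genes had 0 called by limma (7 at an unadjusted p below 0.05, median -0.013). Of 10 targets of Msn2 and Msn4, TSL1 of trehalose synthesis was called higher (0.64, limma adjusted p = 0.0255). It was not called when array 1 (0.63), array 2 (0.50) or array 3 (0.57) was left out. Nor was TSL1 called with the processed signals, with median centring or with the 4 arrays of the comparison alone. HSP12 and DDR2 of that list had log2 ratios between -0.41 and -0.057 on arrays 1 to 3 and of -2.03 and -2.26 on array 4. These lists were chosen with earlier results of these data known and were not tested against one another.

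**Figure D3:**
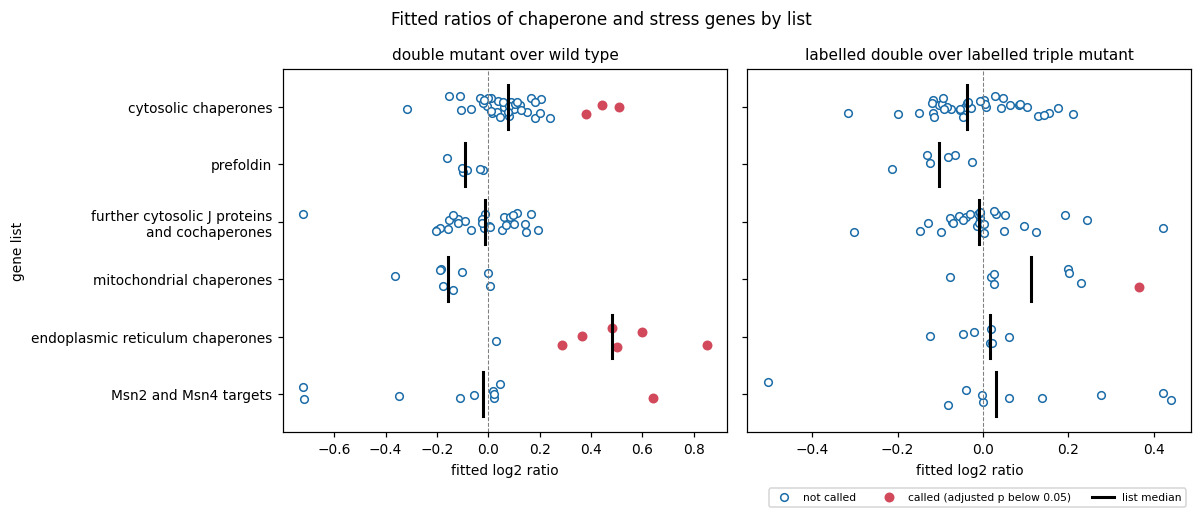
Fitted log2 ratio (horizontal axis) of the 37 cytosolic chaperone genes and of 5 further lists, with 1 point per gene, filled where called, and a black tick at each list's median. In the left panel, double mutant over wild type, 6 of 7 chaperones of the endoplasmic reticulum are filled and lie to the right of 0. Of the cytosol 3 of 37 are filled. The lists were chosen with earlier results of these data known, and the difference was not tested.

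In the comparison of the channels labelled double and triple mutant, which bears on dependence on PDR1, 0 of the 37 cytosolic chaperone genes were called by limma, and 3 had an unadjusted p below 0.05 (8.11%, against 14.6% of all genes). Of all genes 1.59% were called, 1.05% higher and 0.541% lower. The fitted log2 ratios ran from -0.32 (HSP42) to 0.21 (HSP31), with a median of -0.037 beside -0.0026 over all genes, and 15 of 37 were positive (40.5%, all genes 49.1%). The same sign on all 4 arrays was found for 8 genes, 4 in each direction (10.8% each, against 13% higher and 12.3% lower of all genes). The 95% confidence interval, from the same shared spread, lay within 1.5-fold for 36 genes, and for 6139 of all 6465. With the labels exchanged each sign below would turn, and the number called would still be 0. With the 4 arrays of this comparison alone, 3 members were called higher (AHA1, SSA1 and HSP31) and 2 lower (CDC37 and HSP42), in a fit that called 19.3% of all genes.

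SSA1 had log2 ratios of 0.0084, 0.26, 0.070 and 0.29, labelled double over labelled triple, all above 0 (fitted value 0.15; limma adjusted p = 0.368). SSA2 had 0.11, 0.16, 0.12 and -0.054 (fitted value 0.085; limma adjusted p = 0.62), and HSP82 had 0.018, 0.063, 0.065 and 0.26 (fitted value 0.10; limma adjusted p = 0.59). The 95% confidence intervals were -0.010 to 0.32 for SSA1, -0.063 to 0.23 for SSA2 and -0.064 to 0.27 for HSP82. Against wild type the fitted values of these 3 genes were 0.51, 0.44 and 0.38. Both sets of arrays share the double mutant strain, and the difference between the comparisons was not tested.

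**Figure D4:**
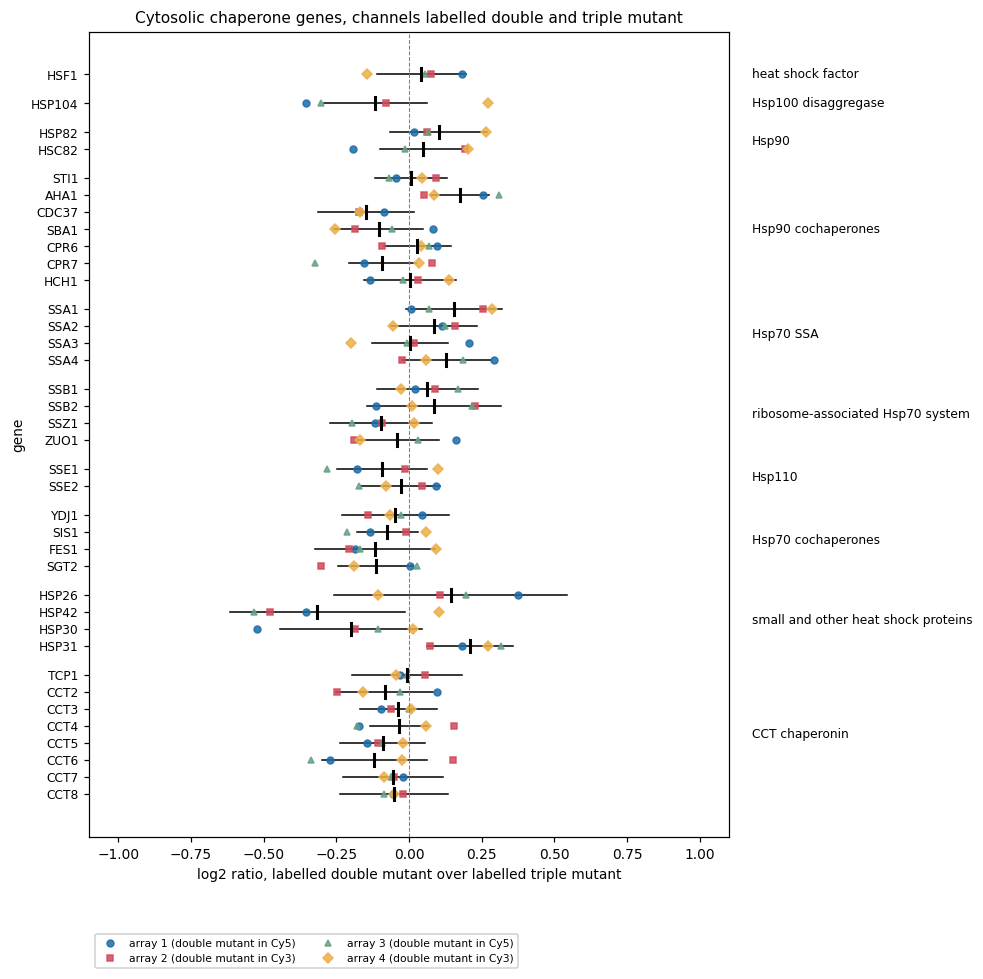
Log2 ratio between the channels labelled double and triple mutant, the double over the triple (horizontal axis), for the 37 genes, drawn as in the plot of the comparison with wild type. The intervals of most genes cross 0, the 8 CCT genes have fitted values below it, and HSP82, SSA1, AHA1 and HSP31 lie above it on all 4 arrays.

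The members farthest from 0 were among the small and other heat shock proteins. HSP42 had -0.35, -0.48, -0.53 and 0.10 (fitted value -0.32; limma adjusted p = 0.321), with array 4 alone above 0. HSP31 was above 0 on 4 of 4 arrays, at 0.18, 0.073, 0.32 and 0.27 (fitted value 0.21; limma adjusted p = 0.171). HSP30 had -0.52, -0.18, -0.11 and 0.014 (fitted value -0.20), and HSP26 had 0.37, 0.11, 0.20 and -0.11 (fitted value 0.14).

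Of the Hsp90 cochaperones, AHA1 was above 0 on all 4 arrays, at 0.25, 0.051, 0.31 and 0.087 (fitted value 0.18, SE 0.0436; limma adjusted p = 0.0998). CDC37 was below 0 on all 4, at -0.084, -0.17, -0.17 and -0.17 (fitted value -0.15; limma adjusted p = 0.39). SSA4 had 0.29, -0.022, 0.19 and 0.060 (fitted value 0.13), HSP104 had -0.35, -0.079, -0.30 and 0.27, with array 4 opposite to the others, and HSF1 had 0.18, 0.076, 0.057 and -0.14 (fitted value 0.043; limma adjusted p = 0.854). AHA1 passed without array 4 of the comparison with wild type, at 0.18 (limma adjusted p = 0.0444), since that array enters the shared estimate of spread.

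All 8 CCT genes had fitted values below 0, from -0.12 (CCT6) to -0.0069 (TCP1), with a median of -0.054, while 0 of them had an unadjusted p below 0.05 and 0 were called by limma. CCT5, CCT7 and CCT8 were below 0 on 4 of 4 arrays. The 6 prefoldin genes, whose products deliver actin and tubulin to CCT, had fitted values below 0 (median -0.10). Of these 0 were called by limma and 2 had an unadjusted p below 0.05. Over all genes 49.1% of fitted values were positive. Against wild type the lists went apart, with positive values for 6 of 8 CCT genes and 0 of 6 prefoldin genes. A link between the lists was not tested. Of the other lists, HSP60, the chaperonin of mitochondria, was the 1 called gene (0.36; limma adjusted p = 0.0428). It had 0.26, 0.34, 0.46 and 0.40 on arrays 1 to 4. HSP60 did not pass when any 1 of these arrays was left out (0.32 to 0.40). Nor did it pass without the first or the third array against wild type (0.36). With background subtraction, the processed signals, median centring or a dye term per comparison it did not pass either. Chaperones of the endoplasmic reticulum had a median of 0.016 in this comparison, with 0 of 7 called by limma and 0 at an unadjusted p below 0.05.

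The 2 probes of a gene agreed closely in both comparisons. Their fitted log2 ratios differed by a median of 0.011 against wild type, at most by 0.093 for HSP26, and by a median of 0.016 in the other comparison, at most by 0.17 for SSB1.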

How the data were processed

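Intensities came from 8 arrays on 1 slide. Per the file headers, the authors extracted them with Agilent Feature Extraction 10.7.3.1. The deposited files hold mean, background and processed intensity and other columns, 0 or 1 flags, per spot. A series table that the authors deposited, with normalized values in 8 columns that match no label, is not used here. Mean signals were corrected by normexp (offset 50) and scaled by loess in limma 3.58.1 (R 4.3.3). Outlier spots were set to missing and the loess curves ignored control spots. Probes well above background in at least 4 of 16 channel measurements were kept (12872 of 13092), and the brighter probe represented each of 6465 genes. Symbols came from RefSeq's table for R64. limma was fitted to all 8 arrays with 1 dye term and 2 coefficients (5 residual degrees of freedom), with Benjamini-Hochberg adjustment across all genes.

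The members and lists were chosen with earlier results of these data known. Named with values on every array were called genes, HSF1 and the largest ratios up to 8 per comparison; others so shown were chosen after their values were seen. The fit was tested on simulated data. Alternatives changed background, scaling, filter, probes, dye term, blocks, weights and arrays; a dye term per comparison was added after seeing the data. No probe or promoter sequence was used here.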

Additional observations from a re-analysis of the deposited data

Results flagged for a closer look

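On the 4 arrays of a comparison, 1 array stood far from the other 3 in 5 of 74 sets of log2 ratios, where chance marks about 5% of sets. Against wild type these were HSP104 (0.20 on array 2, others -0.027 to 0.00042), CDC37 (0.37 on array 2, others -0.052 to -0.028) and HSP26 (0.46 on array 4, others -0.68 to -0.50). Between the channels labelled double and triple mutant they were CDC37 (-0.084 on array 1, others -0.17) and FES1 (0.093 on array 4, others -0.21 to -0.17).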

How the results depend on the processing

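Against wild type the calls of SSA1 and SSA2 were each kept in 19 of 22 alternatives (log2 ratios 0.41 to 0.58 and 0.39 to 0.50; adjusted p 0.00304 to 0.121 and 0.00354 to 0.38) and that of HSP82 in 16 of 22 (0.32 to 0.50; adjusted p 0.012 to 0.358). All 3 kept their sign in the 22, of which the dye term per comparison was chosen after seeing the data. The number called higher was 0 with the processed signals, with median centring and with the 4 arrays of the comparison alone. The number called lower was 0 to 1 when an array was left out, the 1 being HSP26 without array 4. Over all genes 210 higher and 321 lower became 31 and 9 with the processed signals, 28 and 26 with median centring, and 19 and 6 with the 4 arrays alone. Without array 1 they were 78 and 125, without array 3 they were 155 each, and without array 4 they were 379 and 446.

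Between the channels labelled double and triple mutant, 3 members were called higher and 2 lower with the 4 arrays of the comparison alone, and 5 higher and 6 lower with array weights, fits that called 19.3% and 31.8% of all genes. Leaving out an array gave 0 to 1 higher, AHA1, and 0 lower. The replicate numbers were not shown to pair the arrays: deviations of same-numbered arrays correlated at -0.18 to 0.20. With the dye term removed the correlations were -0.69 to 0.017. These cannot decide on pairing, since 1 dye term common to both comparisons pushes residuals of same-numbered arrays towards opposite signs. The replicate block kept 3 members called higher against wild type and 0 in the other comparison. The number of arrays limits the precision.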
